A study of Mus musculus with 4 samples.

Results

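Tranylcypromine (TC) and S2101, labelled as inhibitors of the histone demethylase LSD1, were compared directly: the array of TC-treated cells was set against the array of S2101-treated cells, gene by gene. These are 2 of the 4 arrays of the study. Of 18193 genes with a probe set of their own, 9097 were bright enough to test. The cells were C2C12, a mouse myoblast line that leaves the cell cycle and fuses into myotubes when serum is lowered. All 4 cultures grew in DMEM with 25 mM glucose and 10% FBS, and differentiation was induced in the same medium with 2% horse serum. The labels give vehicle for Control_1 and Control_2, TC for the third array and S2101 for the fourth, each for 48 h, with cRNA made from 250 ng of total RNA. Neither compound's dose is stated, so a difference between the arrays cannot be told apart from a difference in dose. With 1 array per compound (n = 1 each) there was no replicate check, and the Control_1 to Control_2 difference served as the measure of array-to-array spread. The labels do not state whether the cultures were separate. The spread behind every p-value came from the control pair and from a value pooled over all tested genes, not from repeats of a compound. No p-value covers variation beyond these samples.

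LSD1, encoded by Kdm1a, removes methyl groups from histone H3 and belongs to the flavin-dependent amine oxidases. TC is a phenylcyclopropylamine that was first used as an inhibitor of monoamine oxidases, the enzymes encoded by Maoa and Maob. S2101 is known here by its code name. Much of what follows concerns sterol genes. Cells keep membrane cholesterol steady with a pair of opposed circuits: SREBP2, the product of Srebf2, switches on cholesterol synthesis and uptake when sterols are short, while the liver X receptors (LXR) sense oxysterols and switch on cholesterol export through Abca1 and Abcg1 and the ubiquitin ligase gene Mylip. LXR also raises Srebf1, the regulator of fatty acid synthesis.

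The muscle identity given by the labels was checked against its markers. All 10 muscle markers were above the brightness filter, with a summed signal of 101600 (S2101) to 111750 (TC). So were 11 of 14 smooth muscle and myofibroblast markers, with sums of 101420 (S2101) to 113300 (Control_2) and Acta2 the brightest. The 10 endothelial markers were all dim. The median signal was 74.85 for Control_1, 66.3 for Control_2, 63.09 for TC and 71.9 for S2101, and the 2% trimmed mean was 500 on each. Gapdh probe sets at the 3′ and 5′ ends, a sign of RNA integrity, had signal ratios of 0.783, 0.77, 0.79 and 0.744 in that order. In bulk RNA such as this, fewer cells of a type and less RNA per cell cannot be told apart.

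All differences are TC minus S2101 on the scale log2(signal + 50), so that a positive value is a higher signal with TC. The arrays of the compounds lay little further apart than the control arrays did. Over the 9097 genes the differences had a standard deviation (SD) of 0.194 around a median of 0.0158, against 0.17 around -0.0085 between the controls. At least 2-fold differences numbered 9 between the compounds and 3 between the controls, and at least 1.5-fold differences 86 and 59. The excess over the controls was greatest among bright genes. Among the 2275 brightest genes (mean signal of 2201.2 or more) the SDs were 0.144 and 0.111, with 9 genes at least 1.5-fold apart between the compounds and 0 between the controls. Among the 2274 dimmest the SDs were 0.248 and 0.23, with 47 and 42 such genes. The median also moved with brightness: it was -0.0321 in that dim set and 0.0444 in the bright one, where 63.5% of genes had the higher signal with TC. Small shifts of lists made up of bright genes have to be read beside that value.

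**Figure D1:**
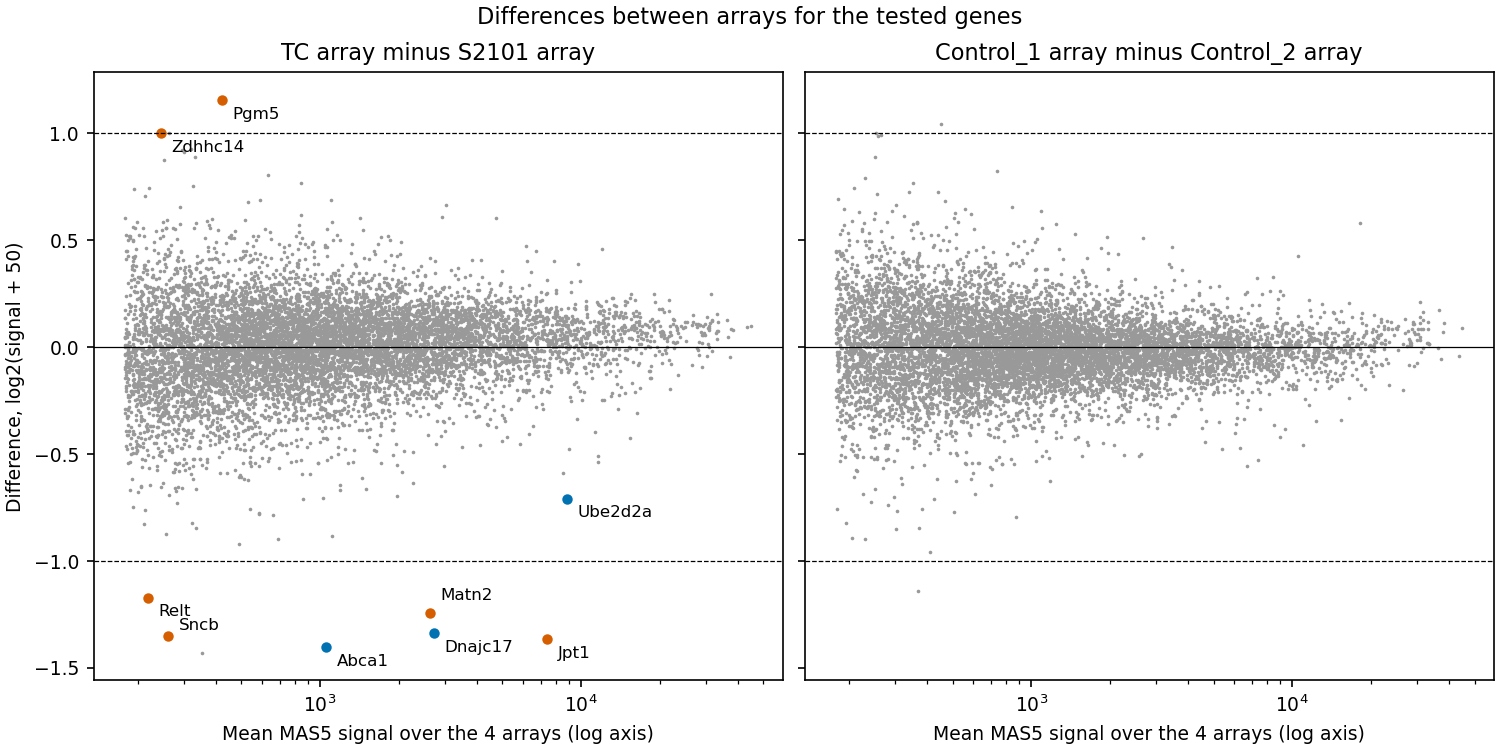
Each point is 1 of the 9097 tested genes, with its mean signal over the 4 arrays on a log axis and its difference between 2 arrays on the vertical axis in log2(signal + 50). The left panel sets TC against S2101, with the 3 genes past the test in blue and the other genes that met the fold rule in orange; the right panel sets Control_1 against Control_2. Dashed lines mark a 2-fold difference. Most genes of the left panel stay within the spread of the right one. In the right panel 3 genes were at least 2-fold apart, all with mean signals of 178.82 to 464.44. Sncb, Relt, Pgm5 and Zdhhc14 lie in that dim range too. Among the 2275 brightest genes, which include Ube2d2a (-0.71), 0 were at least 1.5-fold apart between the controls.

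Only 3 genes passed the test across all genes (limma, Benjamini-Hochberg adjusted p under 0.05), which is 0.033% of those tested, and each had the higher signal with S2101. They were Abca1, Dnajc17 and Ube2d2a. Before adjustment, 792 genes (8.71%) had a p under 0.05, of which 404 were higher with TC and 388 with S2101. The lone arrays were assumed in this fit to vary like the controls. The split of the calls moved with the scaling: 0 genes were higher with TC and 3 with S2101 at the deposited scaling, 1 and 6 after quantile normalization, and 3 and 7 with each array centred on its median. A second count, with no test, took genes at least 2-fold apart whose difference was also at least 2 times that between the controls. It held 8 genes, or 0.0879%: 6 (0.066% of genes) higher with S2101 (Abca1, Jpt1, Sncb, Dnajc17, Matn2 and Relt) and 2 (0.022%) higher with TC (Pgm5 and Zdhhc14). The same rule turned round, with the controls in place of the compounds, held 2 genes, or 0.022%. The members of this second count other than Abca1 and Dnajc17 were named after their values were seen, as were the other genes below that had neither passed the test nor ranked among the largest differences of their list.

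Abca1, the transporter that loads cholesterol onto lipoproteins, was one of the 3 genes past the test. Its signal was 348 and 303 with vehicle, 962 under TC and 2623 under S2101. Both compounds stood above both controls, S2101 further than TC. TC stood above both controls in 43% of all genes, and both compounds did in 27.6%. The difference between the compounds was -1.40 ± 0.15 (SE, n = 1 per compound; 95% interval -1.74 to -1.07; adjusted p = 0.0204, limma), a signal 2.64-fold higher with S2101 once the offset of 50 was added, beside a control difference of 0.17. The other 2 Abca1 probe sets were dim, with mean signals of 42.8 and 17.5, and their differences were -0.53 and -0.36, the same direction. The call ended without the filter on dim genes (adjusted p = 0.788, limma), with a variance prior that ignored brightness (0.38) and with all probe sets of a gene averaged (difference -0.76, 0.107).

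Promoters are shown for 4 sterol genes, chosen after their values were seen: Abca1 and Mylip had the largest differences of the LXR group, Idi1 that of the cholesterol group, and Hmgcs1, an early enzyme, has the one promoter of that group with the letters CACCCCAC. Each line gives the 250 bases before the annotated start, 5′ to 3′ on the gene's own strand, as listed by RefSeq for build GRCm38.p6. Abca1 lies at chr4:53159896-53160145 on the minus strand, Mylip at chr13:45389492-45389741, Hmgcs1 at chr13:119690101-119690350 and Idi1 at chr13:8885356-8885605, these 3 on the plus strand. In the Abca1 promoter the capitals mark an E-box (CANNTG). In the others they mark the CCAAT box, which reads ATTGG on the opposite strand, and in Hmgcs1 also CACCCCAC, the inner letters of a sterol response element.
Abca1: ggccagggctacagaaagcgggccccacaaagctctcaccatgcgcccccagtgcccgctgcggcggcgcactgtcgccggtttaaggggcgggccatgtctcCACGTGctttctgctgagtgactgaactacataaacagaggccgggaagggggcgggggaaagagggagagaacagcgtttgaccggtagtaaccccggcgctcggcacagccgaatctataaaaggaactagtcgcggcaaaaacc
Mylip: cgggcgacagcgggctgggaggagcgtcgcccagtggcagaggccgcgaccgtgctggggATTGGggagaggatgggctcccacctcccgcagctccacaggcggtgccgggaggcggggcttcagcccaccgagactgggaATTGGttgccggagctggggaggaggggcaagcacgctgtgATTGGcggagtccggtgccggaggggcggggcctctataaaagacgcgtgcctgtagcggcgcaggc
Hmgcs1: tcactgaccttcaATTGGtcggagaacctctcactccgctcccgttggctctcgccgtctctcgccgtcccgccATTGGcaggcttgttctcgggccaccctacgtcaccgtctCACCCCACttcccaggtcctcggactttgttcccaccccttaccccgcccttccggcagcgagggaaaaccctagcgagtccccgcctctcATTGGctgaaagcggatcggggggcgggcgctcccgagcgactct
Idi1: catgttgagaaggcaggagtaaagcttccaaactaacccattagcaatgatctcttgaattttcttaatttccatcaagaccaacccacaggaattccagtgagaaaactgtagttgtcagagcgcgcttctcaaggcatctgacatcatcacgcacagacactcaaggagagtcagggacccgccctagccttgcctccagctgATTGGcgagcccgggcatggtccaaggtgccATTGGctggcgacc
The marked letters were 1 E-box in Abca1, 3 CCAAT boxes in Mylip, 3 CCAAT boxes with 1 CACCCCAC in Hmgcs1, and 2 CCAAT boxes in Idi1. E-boxes were marked and counted in Abca1 only, and CCAAT and CACCCCAC in the other windows only. Unmarked letters of the E-box form occur in the Idi1 window too, so the marks do not set Abca1 apart. NF-Y, the factor that binds CCAAT, is known to act beside SREBP at such promoters.

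The letters were counted on both strands over all promoters of the same length. CCAAT was present in 16 of 21 promoters (76.2%) of the 17 cholesterol genes with an entry, in 5 of 7 promoters (71.4%) of the 5 LXR group genes with an entry, in 35.1% of the 9564 promoters of tested genes and in 33.8% of all 32851 promoters. CACCCCAC was found in 1 of the 21 cholesterol promoters (4.76%), that of Hmgcs1, and in 2.71% of those of tested genes and 2.58% of all. The longer core of the sterol response element was in 0 of the 21, in 0.0314% for tested genes and in 0.0731% of all. The LXR element was searched only as an exact direct repeat, with no letter of the repeat allowed to vary. That form was in 0 of the 7 LXR group promoters, in 0% for tested genes and in 0.0152% of all, or 5 of 32851. Forms with other letters were not searched or marked, in Abca1 or elsewhere, so whether these windows hold an LXR element was not tested. CANNTG, which many promoters hold, was in 71.4% of the cholesterol promoters and in 5 of 7 LXR group promoters (71.4%). Its share was 56.4% for tested genes and 66.2% of all. The cell cycle letters TTTGAA and TTCGAA were each in 1 of the 21 (4.76%), against 10.3% and 1.91% for tested genes and 16% and 1.34% of all. The sterol response element core contains CACCCCAC, and so those searches overlap. A match describes letters only, and a missing match says only that those letters are not in this window.

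Part of the LXR group had its higher signal on the same array as Abca1. Of 13 genes on the list, 11 were on the array and 7 were bright enough to test (Nr1h2 and Nr1h5 had no probe set with their symbol alone). Of these 7, 1 passed the test, against 0.033% of all genes with S2101 higher. The other 6 did not pass, and their values are given as such. Mylip, a ubiquitin ligase gene induced by LXR, stood at 1479 and 1389 with vehicle, 2138 under TC and 3226 under S2101, a difference of -0.58 ± 0.10 (95% interval -0.82 to -0.35; adjusted p = 0.198, limma). Abcg1, which exports cholesterol to HDL, stood at 197, 164, 305 and 468, a difference of -0.55 ± 0.21. Srebf1 stood at 1472, 1697, 2455 and 3464, a difference of -0.49 ± 0.12. For these 3 genes, as for Abca1, the order of the arrays was controls lowest, then TC, then S2101.

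Other members of the group did not show that order. Lpcat3, which puts polyunsaturated chains into phospholipids, stood at 2120.2 with TC and 2086 with S2101 against 1312 and 1442 on the controls (0.02 ± 0.11, 95% interval -0.23 to 0.28). Npc1 and Npc2, which carry cholesterol out of lysosomes, differed by -0.20 ± 0.16 and 0.10 ± 0.08. The group median was -0.49, against 0.0158 over all genes, and its control difference was 0.08. An unadjusted p under 0.05 was reached by 4 of the 7, each with S2101 higher, against 4.27% of all genes. Nr1h3, the gene of one LXR itself, was dim, with signals of 124, 109.5, 83.4 and 62.4, and was not tested, nor were the dim members Apoe, Abcg5 and Smpdl3a.

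Cholesterol synthesis genes had their higher signal on the other array, TC, in most cases. Of 26 genes on the list 21 were on the array, all of them bright enough to test. The others are not analysed here. None of the 21 passed the test, where the share over all genes with TC higher was 0%, so no single member is called. The signal was above that of S2101 with TC for 19 of the 21, against 54% of all genes. The group's median difference was 0.36, against 0.0158 over all genes, 0.0444 among the 2275 brightest, and -0.03 for the same genes between the controls. An unadjusted p under 0.05 was reached by 15 members with TC higher and 1 with S2101 higher, against 4.44% and 4.27% of all genes.

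The first steps of the pathway lead from acetyl units to isoprenoids. Hmgcs1, which makes HMG-CoA, stood at 10625 and 10783 with vehicle, 15571 under TC and 11319.7 under S2101, a difference of 0.46 ± 0.08 (95% interval 0.28 to 0.63; adjusted p = 0.158, limma). Idi1, the isopentenyl diphosphate isomerase, had the largest difference of the group: 3468 and 3873 with vehicle, 6969.9 under TC and 4566 under S2101, or 0.60 ± 0.10 (95% interval 0.38 to 0.83; adjusted p = 0.145, limma). In both genes the TC array stood well clear of the other 3. The S2101 array stood just above the controls for Hmgcs1 (0.08 above their mean) and further above them for Idi1 (0.31). Idi1 passed the test after quantile normalization (adjusted p = 0.0465, limma) and after median centring (0.0363). Its other bright probe set, however, gave -0.14. Between them lie the kinases and the decarboxylase of mevalonate, Mvk (0.19), Pmvk (0.35) and Mvd (0.43), followed by Fdps (0.40), which makes farnesyl diphosphate.

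The later steps build and trim the sterol ring. Fdft1, squalene synthase, differed by 0.27, Sqle, which adds the epoxide, by 0.36, and Lss, which closes the ring, by 0.48. Cyp51, which removes a methyl group from lanosterol, stood at 2782 and 2873 with vehicle, 4467 under TC and 3449.9 under S2101 (0.37 ± 0.09). Tm7sf2, a sterol reductase, was by far the furthest of the group from vehicle under both compounds: 302 and 302 with vehicle, 1346 under TC and 959 under S2101, a difference of 0.47 ± 0.15. Msmo1 (0.21), Nsdhl (0.36), Hsd17b7 (0.44), Ebp (0.23) and Sc5d (0.30), enzymes of demethylation and of the double-bond shifts, were also above S2101 with TC. The exception among the enzymes was Dhcr7, which makes cholesterol from 7-dehydrocholesterol: it stood at 592 and 489 with vehicle, 428 under TC and 646 under S2101, a difference of -0.54 ± 0.18 beside a control difference of 0.25. TC thus stood below and S2101 above both controls for this last enzyme.

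Regulators were measured as well as enzymes. Srebf2 itself differed by 0.11 ± 0.11 (95% interval -0.14 to 0.36), and Insig1, which holds the SREBP complex in the endoplasmic reticulum when sterols are plentiful, by 0.08 ± 0.09 (-0.12 to 0.29). Scap, the escort of SREBP, differed by 0.42 ± 0.12, with signals of 963, 916, 1367 and 1006. Stard4, a cholesterol carrier, differed by -0.11 ± 0.14. Insig1 stood at 2354 and 2417 with vehicle, 3760.1 under TC and 3542 under S2101, so this SREBP target, unlike Idi1 and Hmgcs1, was nearly as far from vehicle with either compound.

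Other probe sets of the same genes give a further reading of the same RNA. Among the cholesterol genes 15 other probe sets were bright, and 12 of them differed in the direction of the one used. The other bright sets of Hmgcs1 gave 0.27, 0.53 and 0.09, that of Mvd 0.47 and that of Lss 0.27. With all probe sets of a gene averaged, dim ones included, the group median was 0.23, and Lss stood at -0.03 and Stard4 at 0.04. Both differences from vehicle use the same controls, so they are given side by side and not related to each other: the group's median was 0.66 with TC and 0.31 with S2101, while that of the LXR group was 0.61 with TC and 1.11 with S2101.

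Fatty acid synthesis is the branch served by Srebf1. Of its 17 tested genes 0 passed the test (1 had an unadjusted p under 0.05, 5.88% against 8.71% of all genes), 11 were above S2101 with TC, and the median was 0.06, which became 0.00 after quantile normalization. The largest differences were those of Me1, a source of NADPH (0.27), and Dgat1, which completes triglycerides (0.22, but -0.0037 with all probe sets averaged), and the lowest was that of Gpam, which starts glycerolipid assembly (-0.19). Of 20 tested genes of fatty acid oxidation 0 passed (3, or 15%, with such a p), with a median of 0.04. Hadhb, of the mitochondrial trifunctional protein, stood at 3322 with TC and 4581 with S2101 against 4052 and 4524 (-0.46), but its other bright probe set gave 0.10. Fabp3, the muscle fatty acid binding protein, stood at 1351 and 995 against 711 and 738 (0.42), but its other, dim probe set gave -0.55 and the average of both -0.06.

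Dnajc17, a J-domain co-chaperone, had the smallest adjusted p of the comparison. Its signal was 3106 and 3457 with vehicle, 1224 under TC and 3170.5 under S2101, so that TC alone stood apart from the other 3 arrays. The difference was -1.34 ± 0.11 (95% interval -1.58 to -1.10; adjusted p = 0.00304, limma). Its other 2 probe sets were dim and gave 0.39 and 0.03. Ube2d2a, a ubiquitin-conjugating enzyme, stood at 9309.6 and 9485 with vehicle, 6253 under TC and 10245 under S2101, a difference of -0.71 ± 0.08 (95% interval -0.89 to -0.53; adjusted p = 0.0204, limma). Here again TC was low and S2101 stood just above the controls. The other 3 bright Ube2d2a probe sets gave 0.14, -0.03 and -0.35, so the low TC value was not seen in most of them. With all probe sets averaged the difference was -0.31 for Dnajc17 and -0.11 for Ube2d2a, and neither passed. Both calls also ended without the filter on dim genes (adjusted p = 0.788 for each, limma) and with a variance prior that ignored brightness (0.38 and 0.621).

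Of the genes at least 2-fold apart that did not pass the test, Jpt1, a microtubule-associated protein gene, was the brightest. It stood at 6509 and 9398 with vehicle, 3817 under TC and 9919 under S2101, a difference of -1.37 (adjusted p = 0.0933, limma) beside a control difference of -0.53. Its other 2 bright probe sets gave 0.22 and 0.18, the opposite direction. Matn2, a matrix adaptor protein gene, stood at 2228, 3168, 1501 and 3621 (-1.24), and its other bright probe set gave -0.25. In both genes Control_1 lay below Control_2 as TC lay below S2101.

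The dimmer genes of the count were Sncb, Relt, Pgm5 and Zdhhc14. Sncb, beta-synuclein, stood at 247 and 275 with vehicle, 126 under TC and 401 under S2101 (-1.35 ± 0.21). Relt, a TNF receptor family member, stood at 172, 179, 143 and 385 (-1.17 ± 0.22). For both, TC lay below and S2101 above both controls. Pgm5, a protein of muscle adhesion sites related to phosphoglucomutase, was the reverse, at 359 and 443 with vehicle, 625 under TC and 253 under S2101 (1.16 ± 0.19; adjusted p = 0.158, limma). Zdhhc14, a palmitoyltransferase, stood at 332, 235, 292 and 121, so that S2101 was low and TC lay within the controls (1.002 ± 0.25).

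Just outside the 2-fold rule lay St7 at 0.9997, Atg4d at 0.93, Htr2b at 0.92, Fkbp8 at 0.91 and Gtf3c1 at -0.92. Rps27, a ribosomal protein gene, was further apart than Abca1, at 141 with TC and 464 with S2101 (-1.43), but the controls stood at 523 and 287 and its difference was 1.86 times theirs, so it was left out. Of the 8 genes, Abca1 was the only one with both compounds above both controls.

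**Figure D2:**
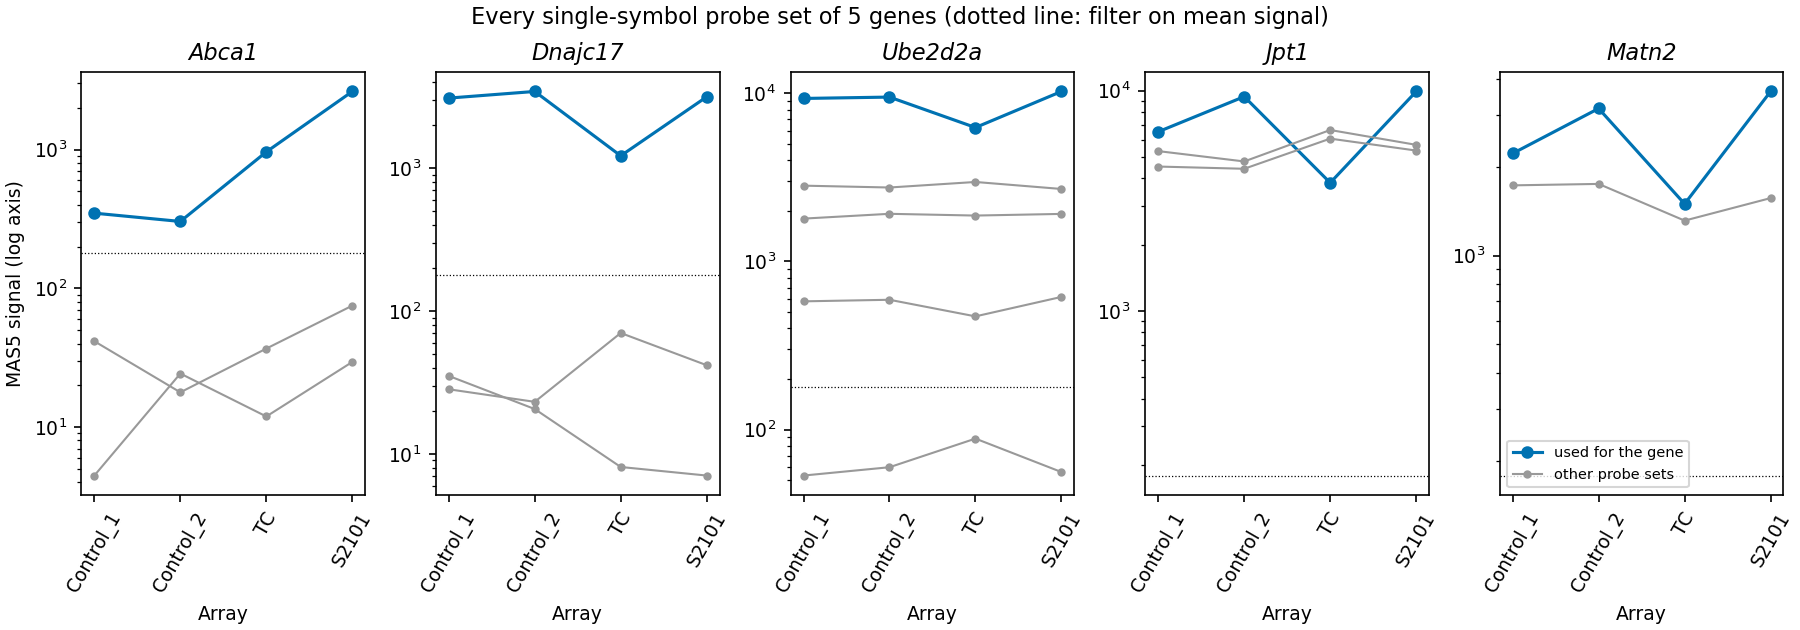
Each panel is 1 gene, with the 4 arrays along the horizontal axis and the signal on a log axis that differs between panels. The blue line is the probe set used for the gene, grey lines are its other probe sets, and the dotted line is the brightness filter at 178.8. The grey lines of Abca1 end higher on S2101 than on TC, as the blue one does, while those of Jpt1 run against it.

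The same reading was taken over all genes. Where the probe set used for a gene differed by at least 0.5, 47 of its 70 other bright probe sets (67.1%, over 53 genes) differed in the same direction, with a median of 0.07 in that direction. Over all genes the share was 53.8% of 5825 probe sets. For the control difference, the same selection gave 23 of 54 (42.6%). The other probe sets gave, at the median, a smaller difference than the one used for the gene. Genes were selected on the probe set used, which by itself favours a smaller value in the others.

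None of the muscle genes on the fixed lists passed the test between the compounds. Of 16 myogenic transcription factors 4 (25%) had an unadjusted p under 0.05, against 8.71% of all genes, and the median was -0.07. Myog, which drives terminal differentiation, stood at 12999 and 12821 with vehicle, 13386 under TC and 11963 under S2101, a difference of 0.16 ± 0.08 (95% interval -0.01 to 0.33). Myod1, the lineage factor, differed by -0.05 ± 0.11 (-0.29 to 0.19). The largest differences of the list were those of Id3, an inhibitor of such factors (-0.43, control difference -0.38), and Six4 (-0.31, control difference -0.26), which are close to the distance between the controls. Among 17 fusion and adhesion genes 1 (5.88%) had such a p and the median was -0.01, with the adhesion genes Vcam1 at -0.26 and Cdh2 at -0.20 and the fusion protein gene Mymk at 0.15.

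Contractile genes made up 3 lists, again with 0 past the test. An unadjusted p under 0.05 was reached by 2, 3 and 4 members (9.52%, 30% and 28.6%), against 8.71% of all genes. The 21 sarcomere and Z-disc genes had a median of 0.08, the 10 fast fibre genes 0.12 and the 14 slow fibre and developmental myosin genes 0.04. Skeletal actin, Acta1, differed by 0.15 ± 0.08 and embryonic myosin, Myh3, by 0.09 ± 0.08. The furthest apart were Mb, the oxygen-binding myoglobin, and Ankrd2, a stretch-responsive ankyrin repeat protein gene. Mb stood at 2856 and 2761 with vehicle, 2805 under TC and 2091 under S2101 (0.42 ± 0.09; adjusted p = 0.266, limma), and Ankrd2 at 1118, 1208, 1118 and 795 (0.47 ± 0.13; 0.352). For both, S2101 was the low array and TC stood with the controls. On the other side lay Myl2, a slow myosin light chain, at 320, 314, 257 and 352 (-0.39 ± 0.19) and Tmod1, which caps thin filaments, at 1196, 1105, 961 and 1211 (-0.32 ± 0.12). Among the fast genes Eno3, muscle enolase, differed by 0.23 and Tnnt3, a troponin, by 0.22. Of 22 genes for the acetylcholine receptor, calcium release and the junction 0 passed (1, or 4.55%, with such a p), with a median of 0.06, Chrng, the fetal receptor subunit, at 0.32 and Jph1, a junctional protein gene, at -0.31.

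Energy metabolism lists had small positive medians, with 0 members past the test. Of 45 oxidative phosphorylation subunits 42 were above S2101 with TC, with a median of 0.12 and a range from -0.20 to 0.27. Their median signal of 7939 lies in the range of the 2275 brightest genes, though not every member does. Among those brightest genes the median was 0.0444 and 63.5% were above S2101 with TC. The largest subunit differences were those of Cox8b (0.27, control difference 0.30) and Uqcrc1 (0.27). Cox8b, with a mean signal of 730.6, lay below that bright range. The 19 genes of the TCA cycle had a median of 0.11, led by Sdhb (0.20) and Idh3b (0.15, but -0.13 with all probe sets averaged), and the 17 of glycolysis and glucose uptake 0.09, led by Pfkm (0.24) and Eno3. Those 17 include Pigq (0.04), which a symbol synonym brought in and which was not on the fixed list. The 24 heat shock and proteasome genes had a median of 0.12, with 22 above S2101 with TC; Psmc4 of the proteasome stood at 0.47, with S2101 at 4332 and TC at 6031 against 6326 and 7972, and the heat shock gene Hspa1b at -0.28. The 20 ribosomal protein genes had a median of 0.09, with Rps9 at 0.25 (-0.76 in its other bright probe set) and Rpl27a at -0.24. The 11 regulators of mitochondrial biogenesis had one of -0.07, with the transcription factor gene Nrf1 at -0.44 (0.15 in its other bright probe set) and Esrra, a nuclear receptor gene, at -0.14.

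Matrix and growth factor signalling lists had negative medians, also with 0 members past the test. The median was -0.15 for 19 matricellular and protease genes, -0.14 for 21 TGF-beta and BMP genes, -0.13 for 16 YAP and TEAD genes and -0.09 for 29 collagens and fibrillar matrix genes, with 14, 18, 12 and 22 members below S2101 with TC. An unadjusted p under 0.05 with S2101 higher was reached by 4, 5, 6 and 3 of them, against 4.27% of all genes, and some genes stand on more than 1 list. Ccn2 and Ccn1, matricellular proteins and standard YAP targets, were well below vehicle under both compounds and lower with TC. Ccn2 stood at 5254 and 5410.1 with vehicle, 1391 under TC and 1938 under S2101, a difference of -0.46 ± 0.09 (adjusted p = 0.263, limma). Ccn1 stood at 4576, 4900.1, 2251 and 2826 (-0.32 ± 0.09). Tead4, a partner of YAP, was dim, at 195, 168, 254 and 171 (0.46), and its other probe set gave -0.53 and the average of both -0.03.

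Ltbp1, which holds latent TGF-beta in the matrix, stood at 1244 and 1240.5 with vehicle, 923 under TC and 1293 under S2101 (-0.47 ± 0.12). Only TC lay away from the controls. The collagens Col4a2 (-0.34) and Col18a1 (0.39, but 0.05 in its other bright probe set) were the furthest of their list and lay on opposite sides. Among 22 growth factor and IGF genes the median was -0.07, with Vegfc, a lymphatic growth factor, at -0.47 and Igf2 at -0.45 beside a control difference of -0.64. The other bright probe sets of Vegfc gave -0.07 and 0.24. Dll1, a Notch ligand, stood at 489 and 462 with vehicle, 402 under TC and 638 under S2101 (-0.61 ± 0.16; adjusted p = 0.337, limma). It was the furthest of 11 Notch genes, whose median was -0.06 and whose next was Heyl at -0.29. Of 23 immediate early genes 0 passed (4, or 17.4%, with an unadjusted p under 0.05, against 8.71% of all genes), with a median of -0.02, Dusp4, a MAP kinase phosphatase, at 0.50 and Egr2 at -0.46.

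**Figure D3:**
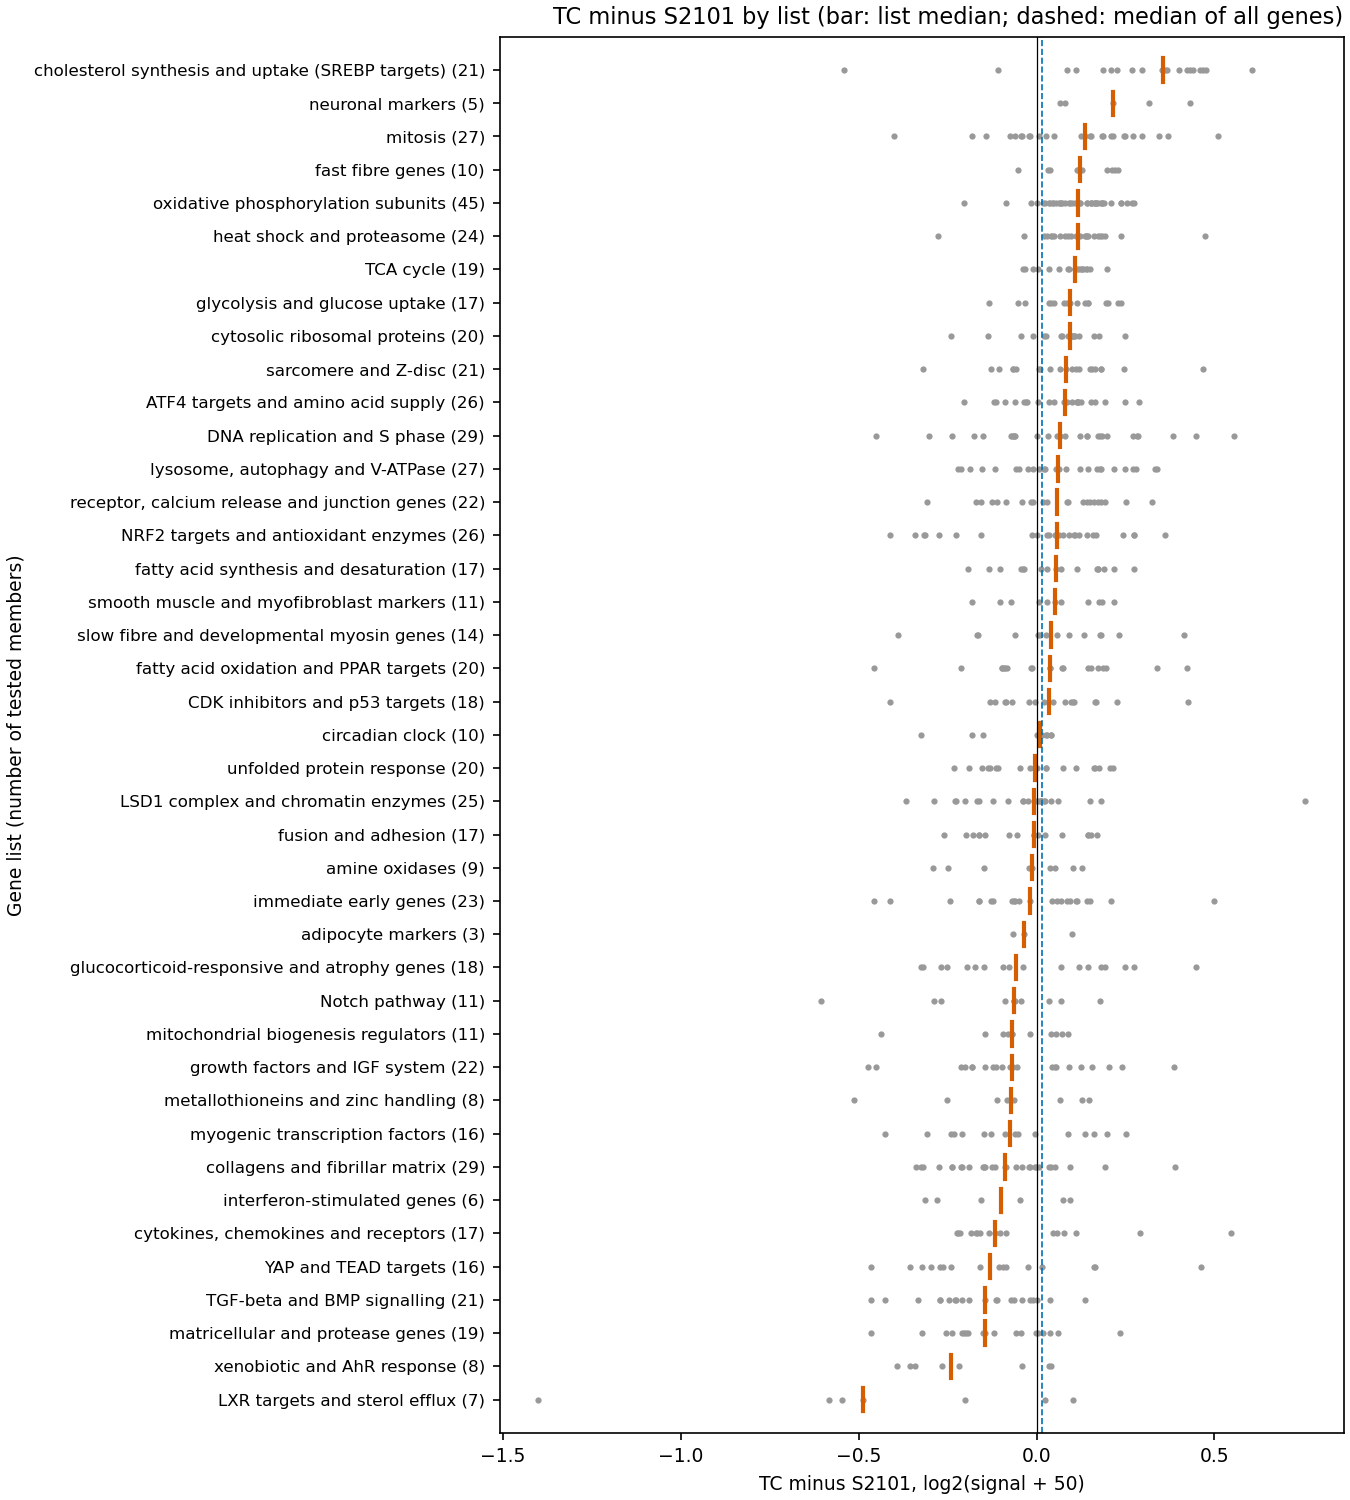
Each grey point is 1 tested gene, and its horizontal position is TC minus S2101 in log2(signal + 50). Rows are gene lists with at least 3 tested members, ordered by their median (orange bar); the dashed line is the median of all 9097 genes. The cholesterol list at the top (median 0.36) and the LXR list at the bottom (-0.49) lie furthest from that line.

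No cell cycle gene on the lists passed the test between the compounds. Mki67, the proliferation marker, stood at 1628 and 1575 with vehicle, 798 under TC and 824 under S2101, so it was nearly equal under the compounds (-0.04 ± 0.12, 95% interval -0.31 to 0.22) and well below vehicle under each. Of 29 replication genes 4 (13.8%) had an unadjusted p under 0.05, against 8.71% of all genes, and the median was 0.06. Fen1, the flap nuclease, stood at 1220.3, 1221, 1081 and 720.4 (0.55 ± 0.12), but its other bright probe set gave -0.33, and for the helicase subunit Mcm4 the probe set used gave -0.45 and the other 0.47. Of 27 mitosis genes 2 (7.41%) had such a p, with a median of 0.14 and the kinetochore genes Ndc80 at 0.51 (control difference 0.55) and Nuf2 at -0.40. The 18 CDK inhibitors and p53 targets (0 with such a p) had a median of 0.03, with Cdkn1c at 0.43 and Sesn1 at -0.41, the latter beside a control difference of -0.51. The other bright probe sets of Sesn1 gave -0.08 and 0.02.

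The stress and xenobiotic lists held no gene past the test either. None of the tested members passed among 20 genes of the unfolded protein response (median 0.00; Xbp1 -0.23, Pdia4 0.22), 26 of ATF4 and amino acid supply (0.08; Aars 0.29, Ddit4 0.25) and 26 of NRF2 and antioxidant defence (0.06). In the last list Keap1, the NRF2 inhibitor, differed by -0.41 and Gsr, glutathione reductase, by 0.36. In the first, the other bright probe sets of Xbp1 gave 0.06, -0.16 and 0.20. These lists had 1, 0 and 6 members (5%, 0% and 23.1%) with an unadjusted p under 0.05, against 8.71% of all genes. Of 8 genes of zinc handling 0 passed (median -0.07). Slc30a1, the zinc exporter, stood at 483 and 539 with vehicle, 459 under TC and 676 under S2101 (-0.51 ± 0.16), and the metallothionein Mt2 at 6816, 7782, 10001 and 11906 (-0.25 ± 0.10). Both zinc-responsive genes thus stood highest on the S2101 array. The 8 xenobiotic response genes had a median of -0.24, with 3 at an unadjusted p under 0.05 and S2101 higher. Cyp1b1, a target of the aryl hydrocarbon receptor, was one of these and stood at 2955, 3068, 3051 and 3916 (-0.36 ± 0.09). The drug exporter Abcb1b, at -0.39, was not one of the 3, and its other, dim probe set gave 0.20. Of 18 glucocorticoid and atrophy genes and 10 clock genes 0 passed, with medians of -0.06 and 0.01. Foxo3 stood at 0.45, while its other bright probe set gave -0.19, and the clock genes Per1 and Dbp stood at -0.32 and -0.18. The 27 lysosome, autophagy and proton pump genes had a median of 0.06, led by Gabarapl1 (0.34) and Atp6v1h (0.33). The other bright probe set of Gabarapl1, however, gave 0.0039.

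The gene of the targeted enzyme was nearly level. Kdm1a stood at 5537 and 5202 with vehicle, 4990.2 under TC and 4862 under S2101, a difference of 0.04 ± 0.09 (95% interval -0.16 to 0.23), and its other bright probe set gave -0.02. An inhibitor of the enzyme is directed at the protein, whose activity the transcript does not report. Maoa, the monoamine oxidase that TC is also known to inhibit, differed by 0.13 ± 0.10 (-0.09 to 0.35), with -0.30 in its other bright probe set, and Maob was too dim to test. Of 9 amine oxidase and polyamine genes 0 passed (1, or 11.1%, with an unadjusted p under 0.05, against 8.71% of all genes), with Kdm1b, the LSD1 paralogue, at -0.29 and Odc1 at -0.25. Of 25 genes of the LSD1 complex and of other chromatin enzymes 0 passed (3, or 12%, with such a p), with a median of -0.01. Zmym3, a zinc finger protein found with LSD1, stood at 0.76, but the controls differed by 0.61. Its other probe sets, all dim, gave -0.15, 0.28 and -0.47. Rreb1 stood at -0.37. The other bright probe sets of Odc1 gave 0.08 and 0.05, the opposite direction to the one used.

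The compounds can also be set side by side on 3 genes that stood far from vehicle under both. Atp6v0e2, a proton pump subunit, was at 92.5 and 140.1 with vehicle, 1618 under TC and 1554 under S2101, and the compounds differed by 0.06 ± 0.21 (95% interval -0.42 to 0.53). Csf2rb, a shared cytokine receptor chain, was at 49.5, 34.1, 342 and 407 (-0.22 ± 0.25, -0.79 to 0.35). Ptgds, prostaglandin D synthase, was at 239.7, 181, 3229.9 and 2196, with TC higher by 0.55 ± 0.17 (0.16 to 0.93; adjusted p = 0.458, limma) and by 0.32 in its other bright probe set. It led the 17 cytokine and prostaglandin genes, of which 0 passed (2, or 11.8%, with an unadjusted p under 0.05, against 8.71% of all genes) and whose median was -0.12. The next of that list was Tnfrsf12a, the TWEAK receptor, at 0.29, with 0.28 in its other bright probe set. The intervals rest on the spread of the control pair and on the value pooled over all tested genes. They do not cover variation between repeats of a compound.

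Outside the smooth muscle list, bright markers of other cell types were few, and 0 passed the test. Of 12 neuronal markers 5 were bright enough, with summed signals of 6795 (S2101) to 7414.5 (TC) over the 4 arrays. Their median was 0.21, with Nefl, a neurofilament, at 0.43 and Gap43, a growth cone protein, at 0.31, both lowest on the S2101 array. Of 11 adipocyte markers on the array 3 were bright, with a median of -0.04 and sums from 17592 to 28697, and 1 leukocyte marker of 11 and 1 osteoblast or cartilage marker of 9 were. The 6 interferon-stimulated genes had a median of -0.10 and the 11 smooth muscle markers one of 0.05. Their part in the differences above was not tested.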

How the data were processed

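RNA of 4 C2C12 samples was measured on Affymetrix arrays. The authors deposited linear signal intensities, 1 for each probe set; MAS5 and Affymetrix Expression Console are named in the submitters' processing notes, with versions not given in these sources. Of 45101 probe sets, 64 were array controls, 34945 carried a single symbol, 932 several and 9160 none; 34741 matched the RefSeq gene table. The deposited intensities were turned into log2(signal + 50), an offset of 10% of the trimmed mean, with no further scaling. The brightest probe set stood for a gene, and genes with a mean signal of at least the median gene (178.8) were tested. The test was limma 3.58.1 in R 4.3.3 over 3 groups with an intensity trend, with 1 residual degree of freedom and a prior of 8.37. The fit and its adjusted calls were tried on simulated arrays, all drawn with the same spread. The assumption that lone arrays vary like the controls was therefore not tested, and the fold rule was not simulated. Named genes were those past the test, and the 2 members of largest difference in a pathway list with none past it (marker lists of other cell types and of smooth muscle by counts, neuronal ones excepted), plus Kdm1a, Maoa and Maob; exceptions are stated. The members and the 44 gene lists were chosen with earlier results of these data known. Listed symbols missing from the array were replaced through synonyms, which brought Pigq into the glycolysis list and Loxl3 into the collagen list. The lists were described, not tested. Alternatives changed the offset, filter, scaling, variance trend, probe sets and thresholds. The number of arrays limits the precision. The control arrays shared 1 identical value and were counted as separate samples. Promoters were matched by symbol: an entry was found for 7440 of the 9097 tested genes.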

Additional observations from a re-analysis of the deposited data

Results flagged for a closer look

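The genes past the test are those on which the effects of the compounds, each against the same controls, differed by a test of that difference itself (limma, adjusted p under 0.05). Abca1 differed by -1.40, Dnajc17 by -1.34 and Ube2d2a by -0.71, each lower with TC. For Abca1 the other, dim probe sets differed in the same direction; for Dnajc17 they did not, and for Ube2d2a 2 of the 3 other bright ones differed by 0.14 and -0.03. With 1 array per compound no group was large enough to look for an outlying sample.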

How the results depend on the processing

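As reported, 3 genes passed the test. The count was 0 with dim genes kept, 0 with a variance prior that ignored brightness, 7 after quantile normalization, 10 with arrays centred on the median, 22 with all probe sets of a gene averaged and 792 at an unadjusted p under 0.05. None of the 3 genes was among the 22. The count at least 2-fold apart was 8 as reported, 14 and 4 with offsets of 2% and 50% of the trimmed mean, 81 with no filter, 4 with a filter at the 75th percentile, 3 with probe sets averaged, 66 at 1.5-fold and 5 beyond 4 times the control difference. The cholesterol median was 0.23 with probe sets averaged, and the LXR median -0.37 with the 50% offset, -0.20 with no filter and -0.29 with probe sets averaged. With probe sets averaged the direction turned for Lss (-0.0334), Stard4 (0.0415), Fabp3 (-0.0639), Tead4 (-0.0323), Mcm4 (0.0101), Maoa (-0.0854), Dgat1 (-0.0037), Idh3b (-0.1282) and Rps9 (-0.1196). Averaging the bright ones alone, an alternative chosen after seeing the data, turned Stard4 (0.0415), Mcm4 (0.0101), Maoa (-0.0854) and Rps9 (-0.2548) and left 2 calls. The cause was not tested. Abca1 and Dnajc17 had no other bright probe set, so averaging the bright ones could not change their differences. Ube2d2a, which had other bright probe sets, no longer passed with them averaged (-0.24). No paired analysis was possible because TC and S2101 have 1 array each. Leaving out a control leaves no residual degree of freedom and does not enter the difference, so no test was run without one.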

Other observations

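Probe sets with several gene symbols or none belong to no gene above. Of 1369 such bright probe sets, 4 were at least 2-fold apart and beyond 2 times the control difference, each with the higher signal on S2101 and 0 with the higher signal on TC. A probe set shared by Edf1, a transcriptional coactivator gene, and Gm11964 stood at 2988 and 4323 with vehicle, 1167 under TC and 3853 under S2101 (-1.68 in log2). One shared by Rps12 and its pseudogenes stood at 469, 435, 290.0 and 764 (-1.26), and one shared by Gm428 and related predicted genes at 226, 200.4, 54.98 and 252 (-1.52). In the Edf1 probe set, as in those used for Jpt1 and Matn2, Control_1 was below Control_2 and the TC array was the lowest of the 4.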
